A study of Mus musculus with 7 samples.

Results

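Type 2 innate lymphoid genes are described here in the mouse pancreas through Gata3, Calca, Il13, Il5, Csf2 and Areg, 6 of the 33864 genes listed in the count tables. The set was put together from measured values, namely the UMI counts (unique molecular identifiers, each of which marks a captured RNA molecule) of the NK and T cells pooled over WT and i4F mice, in which several of these genes led the same small group of cells. Their level under the NK label and their presence together in the same cells are therefore given as description with no test. Only the differences between conditions were tested. The pooled values did not use these differences, but the genes were chosen with earlier results of these data known. All 6 genes had UMIs and entered each fit. Under the NK label Csf2 did so only through its level in WT, and Il13 and Il5 also needed WT to enter.

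The study compared 3 groups of C57BL/6 mice aged 2 months by droplet-based 3′ single-cell RNA sequencing of the dissociated pancreas. The 3 i4F mice (genotype i4F-B) carried, at the Pparg locus, a transgene for the reprogramming factors Oct4, Sox2, Klf4 and c-Myc that doxycycline turns on through an activator at Rosa26, each on 1 allele and not limited to a cell type. They drank doxycycline at 1 mg/ml for 7 days, as did the 2 wild-type (WT) control mice. The 2 caerulein mice were wild type, received 7 injections a day of 100 µg/kg of this secretagogue on 2 days to induce mild pancreatitis, and are given no doxycycline in the labels, so in the comparison with WT the effect of caerulein and that of doxycycline cannot be told apart.

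Group 2 innate lymphoid cells are tissue-resident lymphocytes without antigen receptors that respond to epithelial alarm signals such as IL-33. GATA3 is the transcription factor they depend on, IL-5 and IL-13 are the cytokines by which they recruit eosinophils and act on epithelium and macrophages, and CSF2 (GM-CSF) acts on myeloid cells. Areg encodes amphiregulin, a ligand of the EGF receptor made by many cell types during tissue repair, and Calca encodes calcitonin and the neuropeptide CGRP, which such cells can also make. In T helper 2 cells and in these innate cells, Il13 and Il5 are known to be switched on together from the same cytokine cluster.

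In the GENCODE vM21 annotation of GRCm38, the build to which the reads were aligned, Il13 (chr11:53631324-53634702, minus strand) and Il5 (chr11:53720794-53725106, plus strand) lay 86.1 kb apart, and Csf2 (chr11:54247271-54249667, minus strand) lay a further 522 kb along chromosome 11. Gata3 lay at chr2:9857078-9890034 (minus strand), Calca at chr7:114631478-114636357 (minus strand) and Areg at chr5:91139599-91148432 (plus strand). The words that GATA factors are known to bind (AGATAA, also with T as its first or G as its last letter, on either strand) were searched in the RefSeq promoters of GRCm38.p6, from 250 bases before to 50 bases after each start. They were found for 5 of the 6 genes (all but Areg) and for 29.8% of all 32851 promoters. The cAMP response element TGACGTCA, present in 1.79% of promoters, was found for Areg alone among the 6, and the AP-1 word TGANTCA (7.81% of promoters) for none. The matches are descriptions of letters and were not tested as binding sites. Under the NK label, 9 of the 20 cells with Il13 UMIs also held Il5, whereas most Areg UMIs lay outside that label. Capitals below mark the GATA word (its complement CTATCT in Il5) or the cAMP response element. The 250 bases before the start are shown for the neighbours Il13 and Il5 and for Areg. They are at chr11:53634703-53634952 (minus strand), chr11:53720544-53720793 (plus strand) and chr5:91139349-91139598 (plus strand).
Il13: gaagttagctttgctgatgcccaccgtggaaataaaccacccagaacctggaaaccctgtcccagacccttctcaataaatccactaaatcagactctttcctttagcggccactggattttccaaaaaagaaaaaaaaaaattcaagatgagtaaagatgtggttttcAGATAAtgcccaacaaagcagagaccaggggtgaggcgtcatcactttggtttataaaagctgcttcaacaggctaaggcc
Il5: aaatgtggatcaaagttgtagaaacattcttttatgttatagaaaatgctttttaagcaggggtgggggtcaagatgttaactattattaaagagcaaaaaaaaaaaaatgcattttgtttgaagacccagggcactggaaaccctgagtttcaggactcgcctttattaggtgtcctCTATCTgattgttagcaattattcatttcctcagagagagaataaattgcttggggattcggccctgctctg
Areg: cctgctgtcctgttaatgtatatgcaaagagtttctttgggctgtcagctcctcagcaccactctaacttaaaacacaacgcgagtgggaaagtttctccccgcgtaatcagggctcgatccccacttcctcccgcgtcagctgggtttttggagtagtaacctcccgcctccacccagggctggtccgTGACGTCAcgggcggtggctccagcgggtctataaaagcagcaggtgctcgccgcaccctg

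The tables held 4327 to 15138 cells per mouse and 15469018 to 64784216 UMIs, with medians of 1248.5 to 4247 UMIs per cell. Library i4F 3 stood apart: it had the lowest median, and 13% of its cells were labelled as NK and T cells in the deposited annotation against 1.66% to 4.16% in the other WT and i4F mice. The NK label stands for the authors' cluster names that begin with NK. No caerulein cell carried it, so the comparison within it was WT (72 and 121 cells) against i4F (194, 342 and 993 cells). The median depth of these cells was 2247.5 and 1667 UMIs in WT and 782, 759.5 and 1186 UMIs in i4F. Of 58107 distinct barcodes, 366 occurred in more than 1 library. The label covered T cells as well as NK cells: summed over the lists, T cell markers reached 4884 to 7034 CPM (UMIs scaled to a total of 1000000) in all 5 mice, whereas NK cell markers reached 7220 and 4113 CPM in WT and 611 to 1355 CPM in i4F.

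Under the NK label, Gata3 was counted in every mouse, with 53 and 46 UMIs in WT and 26, 13 and 102 in i4F. It was found in 26.4% and 18.2% of WT cells and in 9.79%, 2.92% and 7.75% of i4F cells. As a background, B cells served, which should lack the gene: 1 of 2362 cells labelled B lymphocytes in WT and i4F held Gata3 UMIs, at medians of 480.5 to 2886 UMIs per cell. At 290 and 197 CPM, both WT mice lay above the i4F mice at 134, 43.0 and 75.1 CPM. Thinned to 500 UMIs per cell, with 105 shallower cells left out, Gata3 was found in 7.35% and 6.67% of WT cells and in 6.32%, 1.36% and 4.06% of i4F cells. The groups then did not overlap, but by a narrow margin that rested on 8 of 120 cells in WT 2 against 11 of 174 in i4F 1.

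The 3 cytokine genes were counted in few cells. Il13 gave 17 and 63 UMIs in 3 and 12 WT cells, and 12, 0 and 8 UMIs in 3, 0 and 2 i4F cells. The 0 of 342 cells in i4F 2 allows a share of up to 0.877% for cells with an Il13 UMI at their median depth of 759.5 UMIs, not for cells expressing the gene. Il13 lay higher in both WT mice (93.1 and 270 CPM) than in any i4F mouse (61.8, 0 and 5.89 CPM). Il5 gave 11 and 29 UMIs in WT (60.2 and 124 CPM) and 12, 3 and 11 in i4F (61.8, 9.91 and 8.10 CPM), and here the groups overlapped, since i4F 1 lay just above WT 1. Csf2 gave 58 and 14 UMIs in 10 and 9 WT cells (317 and 59.9 CPM) and 3, 0 and 6 UMIs in 2, 0 and 3 i4F cells (15.5, 0 and 4.42 CPM). The WT mice thus differed more than 5-fold from each other in Csf2, yet both lay above every i4F mouse. No Il13 or Il5 UMI was counted in the 2362 B-labelled cells, and Csf2 in 1 of them.

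Calca and Areg varied without a shared direction. Calca gave 25 and 60 UMIs in WT (137 and 257 CPM) and 217, 136 and 35 in i4F (1118, 449 and 25.8 CPM), so that i4F mice lay both above and below WT. These UMIs sat in 6 to 14 cells per mouse, with up to 66 UMIs in 1 cell of i4F 1. Areg gave 16 and 113 UMIs in WT (87.6 and 484 CPM) and 26, 14 and 162 in i4F (134, 46.3 and 119 CPM), with WT 2 highest, i4F 2 lowest and the groups overlapping. The paralogue Calcb, whose 3′ reads can be hard to tell from those of Calca, had 0 to 3 UMIs per mouse under this label. As a background for Areg, B-labelled cells stood at 0 CPM in both WT mice and at 18.8, 33.1 and 2.65 CPM in i4F. The Areg level of i4F 2 under the NK label thus lay near that background.

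**Figure D1:**
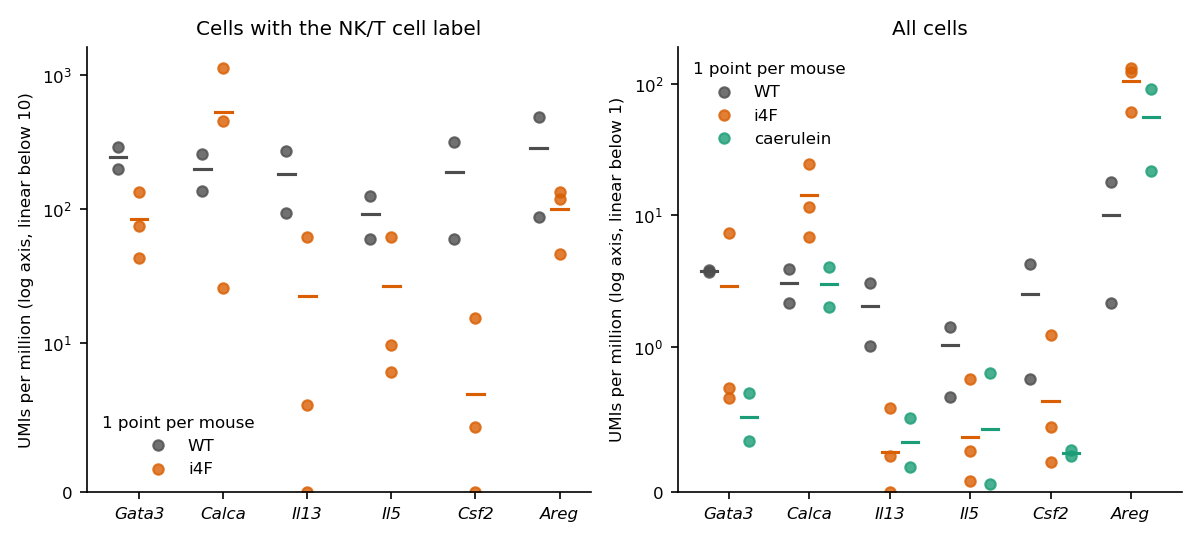
Level of the 6 genes in each mouse, as CPM on a log axis that is linear below 10 (NK-labelled cells) or below 1 (all cells), for NK-labelled cells (WT and i4F) and for all cells (the 3 groups). Points are mice and bars are group means. Csf2, Il13 and Gata3 lay higher in both WT mice than in the i4F mice under the NK label, whereas over all cells Areg and Calca lay higher in all 3 i4F mice than in WT.

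The genes were often counted in the same cells. All 20 NK-labelled cells with Il13 UMIs also held Gata3 UMIs, against 127 of the 1702 cells without Il13 (7.46%, with 14.6% in WT and 6.63% in i4F). Of 18 cells with Il5, 16 held Gata3 and 9 held Il13. By group, Il13 was found in 8 of 9 Il5 cells from WT and in 1 of 9 from i4F. The Il5 cells numbered 4 and 5 per WT mouse and 4, 2 and 3 per i4F mouse. No Il13 UMI was counted under the label in i4F 2. Median depth under the label was 759.5 to 1186 UMIs in i4F, lower than in either WT mouse. With few cells and unequal depth, these counts cannot show whether the groups differed. Areg was present in 17 of the 20 Il13 cells (14 of 15 in WT and 3 of 5 in i4F). Gata3 was present in 19 of the 24 Csf2 cells (16 of 19 in WT and 3 of 5 in i4F). It was also present in 27 of the 49 Calca cells (11 of 14 in WT and 16 of 35 in i4F). At least 2 of the 6 genes were found in 11 and 19 WT cells (15.3% and 15.7% of those with the label) and in 12, 6 and 22 i4F cells (6.19%, 1.75% and 2.22%), 70 cells in all. All 6 genes were found together in 2 WT cells and in no i4F cell, at the lower depths of the i4F cells. The counts of 0 allow shares of cells with UMIs of all 6 of up to 1.55%, 0.877% and 0.302% in the 3 i4F mice, and do not limit the share expressing them.

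**Figure D2:**
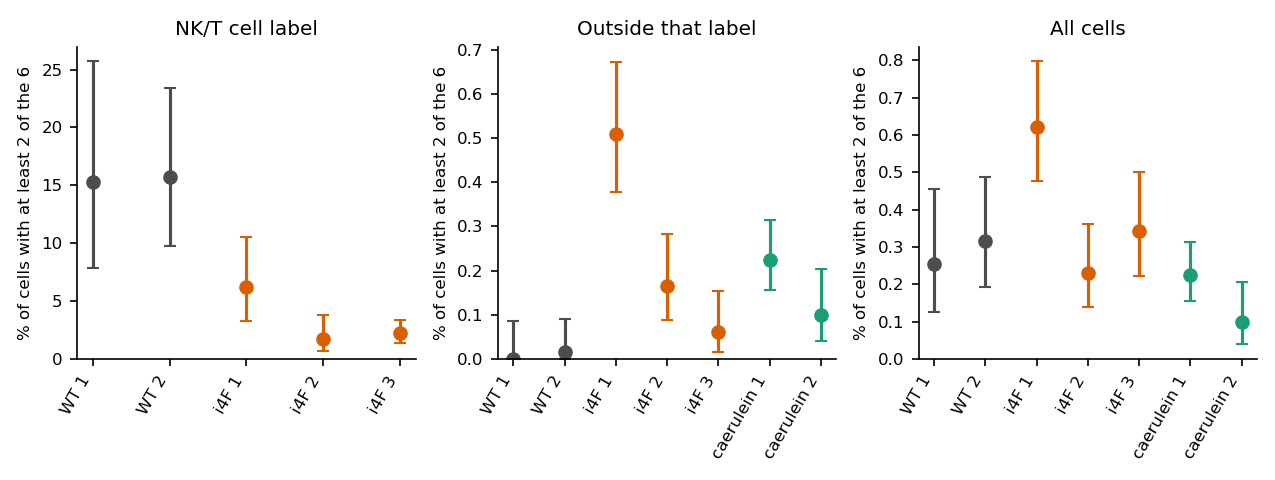
Percentage of cells with UMIs of at least 2 of the 6 genes in each mouse, with exact 95% binomial intervals, among NK-labelled cells, among the other cells and among all cells. Both WT mice (15.3% and 15.7%) lay above the 3 i4F mice (1.75% to 6.19%) within the label, but not over all cells, where i4F 1 was highest.

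The other genes of these 70 cells were compared with the remaining 1652 NK-labelled cells as a description, since the cells had been picked by genes of the same matrix. Il1rl1, the IL-33 receptor, reached 377 CPM against 9.33 CPM and was higher in the 70 cells in each of the 5 mice. Klrg1, a receptor found on group 2 innate lymphoid cells and on other lymphocytes, reached 346 against 14.5 CPM, Arg1, which encodes the arginine-degrading enzyme arginase 1, 456 against 18.7 CPM, and Rora, a transcription factor these cells need, 1705 against 244 CPM. Of 10 markers of group 2 innate lymphoid cells 8 were higher, some by less, as Il7r (684 against 447 CPM) and Icos (369 against 298 CPM). Thy1 was lower (220 against 299 CPM), and Ptgdr2, the prostaglandin D2 receptor CRTH2, was at 0 in both sets of cells. None of 12 T cell markers and none of 10 NK cell markers was higher, and their sums were 2664 against 6439 CPM and 165 against 1996 CPM. A UMI of Cd3d, Cd3e or Cd3g, the chains of the T cell receptor complex, was nevertheless present in 25 of the 70 cells (35.7%), against 75% of the other cells and 1.52% of B-labelled cells, so the 70 cells did not all lack T cell RNA. T helper 2 cells share these cytokines and GATA3, and the counts do not separate them cell by cell.

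**Figure D3:**
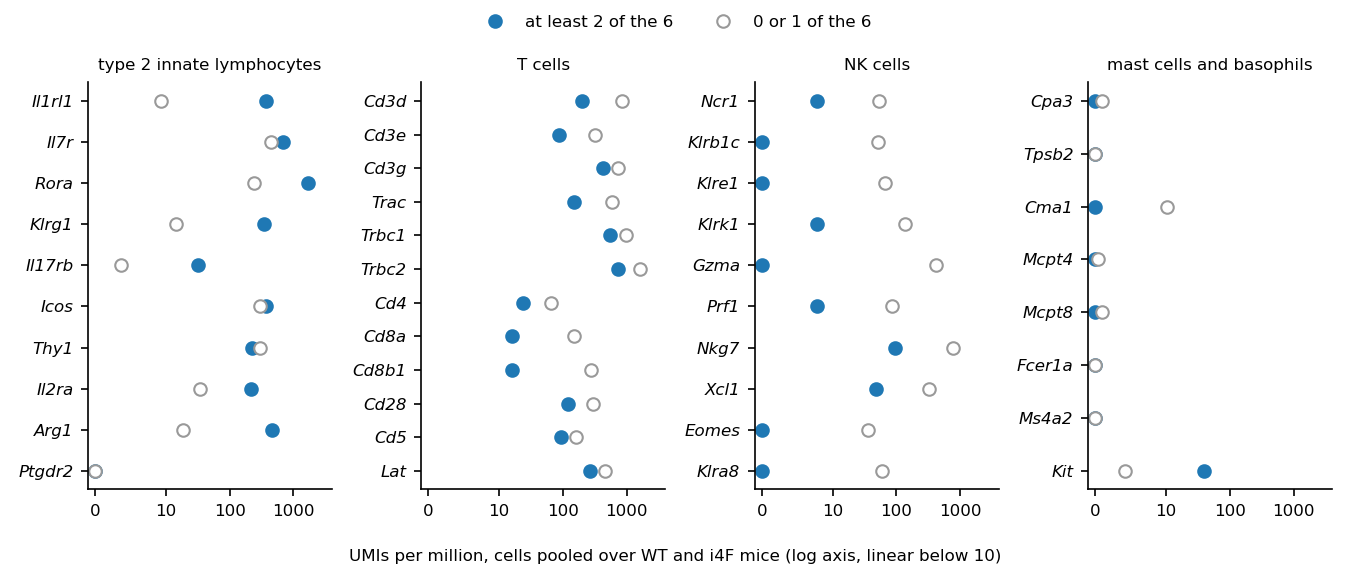
Level of each gene of 4 marker lists, as CPM on an axis that is logarithmic above 10, in NK-labelled cells with at least 2 of the 6 genes (filled) and in the other NK-labelled cells (open), pooled over WT and i4F mice. The group 2 innate lymphoid genes lay higher in the former for 8 of 10 (4400 against 1369 CPM in sum), and every NK and T cell gene lay lower.

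By the rule fixed for naming further genes, the 10 with the highest ratio in the 70 cells were Ccl1, Hs3st1, Cxcl2, Il1rl1, Arg1, Klrg1, Hilpda, Gadd45b, Ptpn13 and Ccr8. The ranking pools mice, and WT gave 30 of the 70 cells but 163 of the 1652 others. In all 5 mice 7 of these genes were higher in the cells with at least 2 members, Ptpn13 in 4 and Ccl1 and Ccr8 in 3, Ccl1 having no UMI in NK-labelled cells of i4F 1 and i4F 2. Ccl1, a chemokine, and Ccr8, its receptor, reached 1344 against 34.0 CPM and 220 against 7.93 CPM. Markers of other sources of type 2 cytokines were scarce, with 7 of 8 mast cell and basophil genes at 0 (Kit alone was counted) and 5 of 5 eosinophil genes at 0. In the 1652 others these lists summed to only 16.8 and 1.40 CPM, so counts of 0 in 70 cells say little. Stellate cell genes summed to 1744 CPM in the 70 cells and 305 CPM in the others, and their part in these values was not tested.

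The comparison of i4F with WT under the NK label asked whether reprogramming altered these genes among the lymphocytes. The UMIs were summed per mouse and tested with edgeR, with p-values adjusted over 3574 genes. Csf2 was lower in i4F, by −4.96 on the log2 scale (SE 0.84, adjusted p = 0.0273, edgeR), and was the 1 of 6 genes called, where 1.51% of all genes were. DESeq2 likewise called Csf2 alone (adjusted p = 2.47e-05), with 2.8% of all genes called. Csf2 passed the filter on low counts, 42.8 CPM in at least 2 mice, through WT alone (2 WT mice and 0 i4F mice above it), so a gene at its i4F level could enter the test only by being higher in WT. Il13 changed by −3.61 (SE 0.91, adjusted p = 0.111), Il5 by −2.28 (SE 0.73, adjusted p = 0.204), Gata3 by −1.47 (SE 0.39, adjusted p = 0.140), Areg by −1.41 (SE 0.61, adjusted p = 0.343) and Calca by 1.40 (SE 1.07, adjusted p = 0.608), and none of these passed in the edgeR fit. For Il13 and Il5, 2 WT mice but 1 i4F mouse lay above the filter on low counts, so at their i4F levels they too needed WT to enter the test. For 3 of the 6 genes, Gata3, Il13 and Csf2, both WT mice lay above all i4F mice, as did 22.3% of all genes tested. The call for Csf2 rested on single libraries, since without WT 1 its change was −3.33 (adjusted p = 0.515, edgeR) and without i4F 2 it was −4.62 (adjusted p = 0.145, edgeR). Without i4F 1, Il13 (−5.05, adjusted p = 0.0131) and Il5 (−3.22, adjusted p = 0.0193) passed too, where 2.72% of all genes did, though with i4F 1 left out both genes entered the test through WT alone, and without i4F 3 Calca did (2.01, adjusted p = 0.0467, edgeR), where 3.13% of all genes did. A sum per mouse cannot tell fewer cells of a kind under the label from less RNA per cell. Beside this, the NK marker list was lower in i4F, as given above, and the summed stellate markers stood at 2644 and 1036 CPM in WT and 66.1 to 191 CPM in i4F under the label, and the part of either in the change of Csf2 was not tested.

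**Figure D4:**
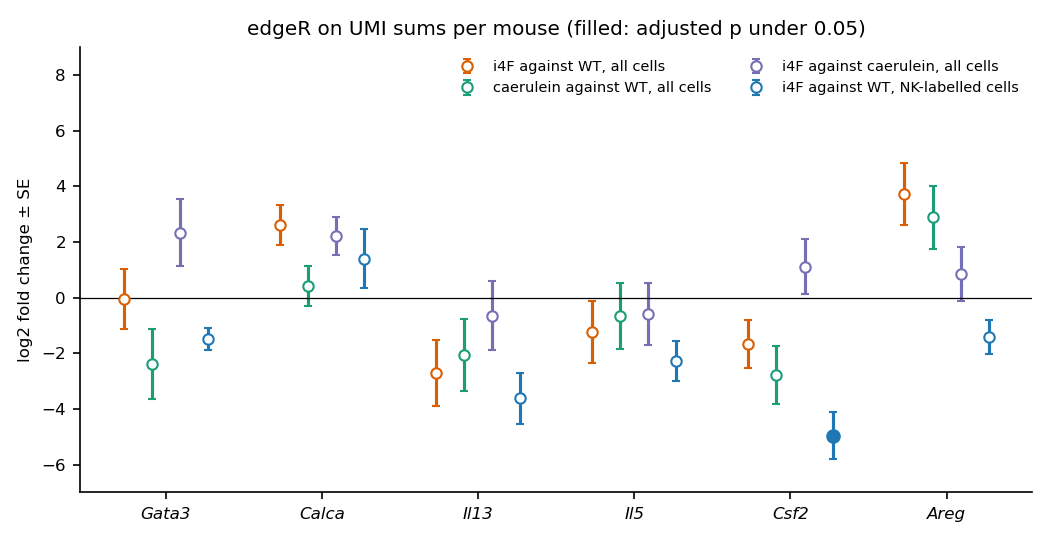
Log2 fold change of the 6 genes with its standard error in 4 comparisons (edgeR), with filled points where the adjusted p was under 0.05. Csf2 under the NK label (−4.96) was called, and no gene was called over all cells.

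The share of NK-labelled cells with at least 2 of the 6 genes was 15.5% ± 0.300 (SD, n = 2) in WT and 3.39% ± 2.44 (SD, n = 3) in i4F, a difference of −12.1 percentage points (exact permutation test, two-sided, p = 0.2, the smallest that 3 against 2 mice allow). After thinning to 500 UMIs per cell, 7.35% and 7.50% of WT cells remained positive, against 5.75%, 1.02% and 1.04% of i4F cells. Within the label the direction was the same in all 3 i4F mice at either depth, but i4F 1 came close to WT after thinning. This share also depends on how many other cells carry the label, and i4F 3 had the largest part of its cells under it. Out of all cells, NK-labelled cells with at least 2 of the genes averaged 0.277% in WT and 0.161% in i4F. The groups then overlapped (exact permutation test, two-sided, p = 0.4). Such cells were 22 of 7614 in i4F 3, against 11 of 4327 and 19 of 6326 in WT. In i4F 1 and i4F 2 they were 12 of 9811 and 6 of 8218. The part of the label's size in the lower share was not tested.

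The other genes of the pathway were listed with earlier results of these data known. Few of them passed under the NK label, where 1.51% of all genes did, so that counts near 0 are what lists of this size would give at that share. Among 10 tested receptors found on type 2 innate lymphocytes, Klrg1, an inhibitory receptor for cadherins, was the 1 that passed. It fell by 3.85 on the log2 scale (adjusted p = 0.00749, edgeR), was lost as a call without WT 1 (adjusted p = 0.199) or i4F 2 (adjusted p = 0.0813), and is named after its values were seen. As with Csf2, only WT mice (2 of 2, and 0 of 3 i4F mice) lay above the filter on low counts. Its level was 208 and 89.9 CPM in WT and 15.5, 6.61 and 8.10 CPM in i4F, without overlap, as for 22.3% of all genes tested. The most abundant of that list, Il7r, the IL-7 receptor, changed by −0.10 (adjusted p = 0.931) and Icos, a costimulator, by −0.03 (adjusted p = 0.988). Of 4 other type 2 products tested none passed by edgeR, and Ccl1 came nearest with −3.72 (adjusted p = 0.0601), its 72 UMIs in i4F all being in i4F 3. Of 7 transcription factors tested none passed by edgeR, and 3 of the 7 changed upwards. Rora stood at −0.90 (adjusted p = 0.385) and Id2, which innate lymphoid cells need, at −1.19 (adjusted p = 0.171). Ets1 stood at 0.54 (adjusted p = 0.577) and Tcf7 at 0.73 (adjusted p = 0.284).

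Over the whole pancreas, the 6 genes parted by where their UMIs lay. In WT, the NK label held 100% of the Il13 and Il5 UMIs, 81.8% of Csf2, 72.6% of Calca, 70.2% of Gata3 and 31.8% of Areg. In i4F it held 83.3% of Il13, 81.2% of Il5 and 78.3% of Gata3, but 19.0% of Calca, 16.7% of Csf2 and 1.5% of Areg. The mice differed here: for i4F 1, 2 and 3 the share was 0.348%, 0.280% and 17.0% of Areg, 11.1%, 0% and 31.6% of Csf2, 14.6%, 30.8% and 33.0% of Calca and 66.7%, 48.1% and 89.5% of Gata3. Without i4F 1 it was 31.3% of Calca and 2.96% of Areg. Without i4F 3 it was 0.321% of Areg, 8.57% of Csf2 and 59.1% of Gata3. Il13 and Il5 UMIs, where there were any (i4F 2 had none of Il13), thus lay mostly under the NK label in each WT and i4F mouse, and so did those of Gata3 in all but i4F 2, whereas in every i4F mouse most Areg and Calca came from elsewhere.

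**Figure D5:**
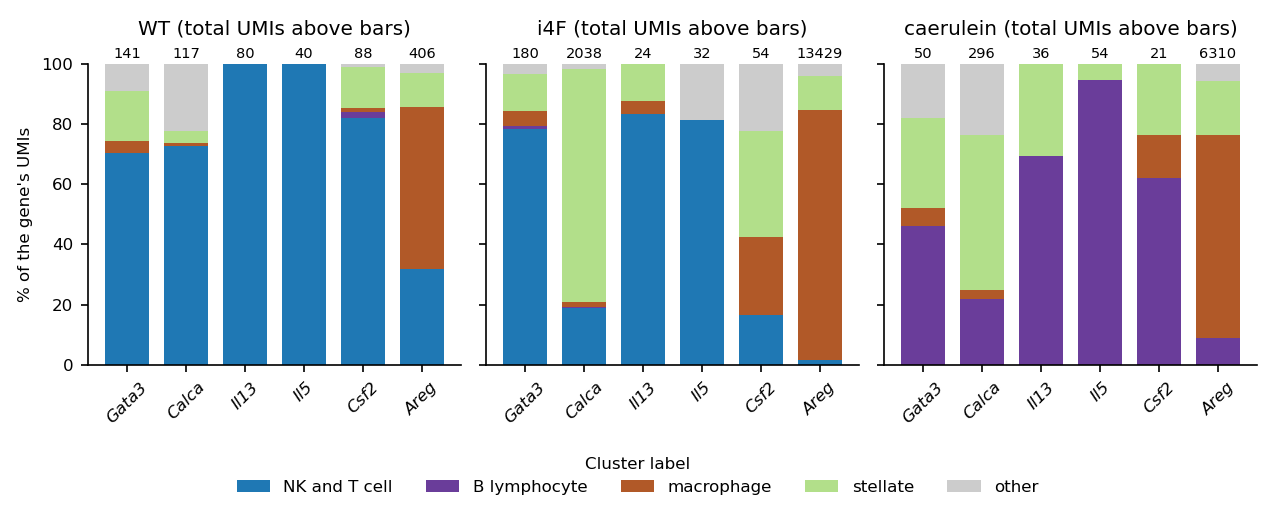
Share of each gene's UMIs, in percent, that fell in each class of cell label in WT, i4F and caerulein mice. Il13 and Il5 lay wholly under the NK label in WT and mostly there in i4F, Areg in i4F lay mostly in macrophage labels, and Il5 in caerulein mice in the B lymphocyte label.

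In i4F, 73.6% of Areg UMIs (9878) were in cells named macrophages 1. Over all macrophage labels, Areg stood at 29.2 and 135 CPM in WT, 572, 553 and 455 CPM in i4F, and 183 and 40.3 CPM in caerulein mice. All 3 i4F mice lay above the other 4, and the share of all genes that did so under these labels was not counted. The share of these cells with an Areg UMI was 5.77% and 8.75% in WT, 24.5%, 21.8% and 18.8% in i4F and 9.86% and 3.53% in caerulein mice, at medians of 1719.5 to 5778.5 UMIs per cell. In B-labelled cells of i4F it was 1.89%, 1.08% and 0.442%, at medians of 644, 480.5 and 1070 UMIs. Macrophage markers (C1qa, C1qb, Adgre1, Csf1r and Lyz2) summed to 16382 CPM or more in every mouse under these labels. Neutrophil markers, however, reached 1637 to 5458 CPM in i4F against 84.8 to 733 CPM in the other mice, and their part in the Areg level was not tested. The clusters pooled under the macrophage labels were named for each condition separately. Pooled over mice, Areg stood at 122 and 72.7 CPM in macrophages 1 and 2 of WT. In macrophages 1, 2 and 3 it stood at 557, 35.7 and 670 CPM in i4F and at 110, 252 and 3.84 CPM in caerulein mice.

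Calca in i4F lay mostly (76.6%, 1561 UMIs) in cells named activated pancreatic stellate 1, the fibroblast-like cells of the organ. Over the stellate labels it stood at 0.375 and 0.329 CPM in WT, 28.2, 12.7 and 14.6 CPM in i4F and 4.91 and 2.00 CPM in caerulein mice, again without overlap between i4F and the others. The share of all genes without such overlap under the stellate labels was likewise not counted. The labels pooled here differ between groups: in WT 2739 and 631 cells were in clusters named quiescent and 275 in a cluster named activated, whereas in i4F (6917 and 1437 cells) and caerulein mice (5715 cells) all clusters were named activated. The 275 activated WT cells held 1 Calca UMI (1.21 CPM). Calcb was counted under the same labels, with 1245, 281 and 40 UMIs in i4F against 0 and 2 in WT. In the 3 i4F mice 149 of 352, 39 of 101 and 6 of 12 of the stellate cells with Calcb also held Calca. How the reads under these labels divide between the paralogues is therefore uncertain. In WT, where stellate cells held hardly any, 16 further Calca UMIs were in 14 of 146 cells of an endocrine label.

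Summed over all cells, Areg stood at 2.14 and 17.9 CPM in WT, 124, 132 and 61.6 CPM in i4F and 91.6 and 21.8 CPM in caerulein mice. Every i4F and caerulein mouse lay above both WT mice. Calca stood at 2.14 and 3.93 CPM in WT, 24.6, 11.7 and 6.85 CPM in i4F and 4.04 and 1.99 CPM in caerulein mice, with all i4F mice above the rest. Gata3 was at 3.86 and 3.68 CPM in WT, 0.644, 0.715 and 7.37 CPM in i4F and 0.679 and 0.351 CPM in caerulein mice, so that i4F 3 lay above WT and the other 2 i4F mice far below it. Il13 had 17 and 63 UMIs in WT, 15, 0 and 9 in i4F and 33 and 3 in caerulein mice, Il5 had 11 and 29, then 17, 3 and 12, then 53 and 1, and Csf2 had 72 and 16, then 27, 8 and 19, then 16 and 5. The caerulein mice differed widely from each other in Il5, with 53 UMIs of 64784216 in caerulein 1 and 1 of 17099070 in caerulein 2.

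In i4F against WT over all cells, edgeR called 0 of the 6 genes and 0% of 18340 genes, although 2 of the 6 and 6383 genes had an unadjusted p under 0.05. Areg changed by 3.72 on the log2 scale (SE 1.13, adjusted p = 0.0818, edgeR) and Calca by 2.62 (SE 0.71, adjusted p = 0.0723). DESeq2 called both (Areg adjusted p = 0.00106, Calca adjusted p = 0.00199), with 23.7% of all genes called. Both genes lay without overlap above WT, as did 12% of all genes, and Il13 lay below, as did 41.7%. Gata3 changed by −0.05 (SE 1.07, adjusted p = 0.977), Il13 by −2.71 (SE 1.19, adjusted p = 0.157), Il5 by −1.24 (SE 1.12, adjusted p = 0.442) and Csf2 by −1.66 (SE 0.87, adjusted p = 0.213) in the edgeR fit. With 1 mouse left out, Csf2 ranged from −2.43 to −0.10 (the latter without WT 1, adjusted p = 0.960), Areg from 2.84 (without WT 1) to 6.09 (without WT 2), Il13 from −3.46 to −1.55 (the latter without WT 2) and Il5 from −2.04 to −0.46 (the latter without WT 2). In the fit of all mice, Il13, Il5 and Csf2 each had 2 WT mice but 1 i4F mouse above the filter on low counts. Library i4F 3 alone, when left out, brought calls among the 6 genes. Without it edgeR called 5 of 6, all but Il5, where 49.8% of all genes were called: Gata3 at −2.09 (adjusted p = 0.00507), Il13 at −3.46 (adjusted p = 0.0327), Csf2 at −2.43 (adjusted p = 0.0370), Calca at 2.94 (adjusted p = 0.00617) and Areg at 3.99 (adjusted p = 0.0223). Of the mice compared, only those of WT lay above the filter on low counts for Il13 in that fit (2 WT and 0 i4F mice).

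In caerulein against WT, which shares the WT mice with the comparison above, edgeR called 0 of 6 genes and 9.08% of all genes, with 2 of the 6 and 7130 of 18340 genes at an unadjusted p under 0.05. Areg changed by 2.88 (SE 1.12, adjusted p = 0.113) and Csf2 by −2.78 (SE 1.04, adjusted p = 0.105) by edgeR. DESeq2 called these 2 (adjusted p = 0.0186 and 0.0409), with 29.9% of genes called. No caerulein mouse lay above the filter on low counts for Csf2, which entered this fit through 2 WT mice and 1 i4F mouse. For Gata3, Il13 and Il5, 1 caerulein mouse lay above it, beside 2 WT mice. Areg lay above WT in both caerulein mice, as did 23.3% of all genes, and 3 of the 6 (Gata3, Il13 and Csf2) lay below, as did 52.1%. Gata3 (−2.38, adjusted p = 0.202), Il13 (−2.06, adjusted p = 0.267), Il5 (−0.65, adjusted p = 0.698) and Calca (0.41, adjusted p = 0.688) did not pass in either fit. Without i4F 3, which enters this contrast through the shared fit, edgeR called Gata3 (−2.33, adjusted p = 0.00484) and Csf2 (−2.78, adjusted p = 0.0324), 2 of 6 where 46.4% of all genes were called. The library names fall into series, AL for WT 1 and the i4F mice and AM for WT 2 and the caerulein mice, so that in the contrast of i4F with caerulein the group and the series cannot be told apart except through the 2 WT mice. Between i4F and caerulein, edgeR called 0 of 6 genes and 0% of all genes (1 of the 6 and 2637 of all genes at an unadjusted p under 0.05). Calca, at 2.21 (adjusted p = 0.256, edgeR), was the gene DESeq2 called (adjusted p = 0.0295, with 5.4% of genes called), and all i4F mice lay above both caerulein mice, as did 16.7% of all genes. Without i4F 3, edgeR called Calca too (2.51, adjusted p = 0.0418), where 8.61% of all genes were called.

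In the caerulein mice, the genes were counted together in cells of another label. The cluster named B lymphocytes there, with 1392 cells, held 51 of 54 Il5 UMIs, 25 of 36 Il13 UMIs, 13 of 21 Csf2 UMIs, 23 of 50 Gata3 UMIs and 65 of 296 Calca UMIs. It held 571 of 6310 Areg UMIs, most of which thus lay elsewhere. Its B cell markers summed to only 94.2 and 109 CPM, against 2568 to 5707 CPM under the B labels of WT and i4F, and its macrophage markers to 7936 and 8031 CPM, so the data went against that name. Caerulein 1 held 994 of the cluster's 1392 cells. It gave 50 of the 51 Il5 UMIs under this label, 22 of 25 for Il13 and 9 of 13 for Csf2. For Gata3 it gave 20 of 23, for Calca 56 of 65 and for Areg 516 of 571. Under any label, 34 cells of caerulein 1 and 7 of caerulein 2 held at least 2 of the 6 genes. Within the cluster 26 cells did, counted over both mice together. Against the other 1366, described without a test, they held Il1rl1 at 497 against 3.37 CPM, Rora at 1987 against 34.6 CPM and Klrg1 at 372 against 1.23 CPM. Of the group 2 innate lymphoid markers 9 of 10 were higher, and all 10 NK cell markers were at 0, but 7 of 12 T cell markers were higher as well (1283 against 265 CPM in sum).

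Counted over all cells regardless of label, at least 2 of the 6 genes were found in 0.285% ± 0.0438 (SD, n = 2) of WT cells, 0.398% ± 0.201 (SD, n = 3) of i4F cells and 0.162% ± 0.0885 (SD, n = 2) of caerulein cells. The i4F and WT mice overlapped (exact permutation test, two-sided, p = 0.6). Outside the NK label 66 of 24114 i4F cells counted, of which 55 held Calca with Areg, and 54 carried stellate labels, against 1 of 10460 WT cells. Requiring at least 3 of the 6 genes turned the difference of i4F from WT to −0.158 percentage points without overlap (exact permutation test, p = 0.2, the smallest possible here). Caerulein lay below WT by 0.123 percentage points (exact permutation test, p = 0.33, the smallest for 2 against 2 mice), and i4F lay above caerulein by 0.236 (exact permutation test, p = 0.2).

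Of the pathway's other genes over all cells, 0 passed by edgeR in i4F against WT and 0 in i4F against caerulein, where 0% of all genes passed as well, so these counts say nothing of the pathway. In caerulein against WT, 3 of 8 receptors for the products of the 6 genes rose by edgeR, where 9.08% of all genes were called. Every call in this contrast was lost with the series of the library name as a term, or without WT 1, WT 2, caerulein 1, caerulein 2 or i4F 2, since edgeR then called 0 genes in all. Cells with macrophage labels made up 2.40% and 8.13% of WT cells but 50.3% and 40.3% of caerulein cells (35.6%, 39.6% and 6.30% in i4F), and the part of this shift in the sums over all cells was not tested. The 3 receptors were Csf2rb (2.26 on the log2 scale, adjusted p = 0.0310) and Csf2rb2 (1.97, adjusted p = 0.0379), which encode the signalling chain for GM-CSF and IL-5 and its IL-3-specific relative, and Il4ra, the chain shared by IL-4 and IL-13 (1.5, adjusted p = 0.0400). The list's median change was 1.45, against −0.06 over all genes, and in i4F against WT, which shares the controls, it was 1.14 against 0.04. Of the other products, Il10 rose (5.52, adjusted p = 0.0322) and Penk, which encodes the enkephalin precursor, fell by 2.88 (adjusted p = 0.0331). Il7, a survival signal for lymphocytes, fell by 2.09 (adjusted p = 0.0449), and Calcrl, a subunit of the CGRP receptor, fell by 1.59 (adjusted p = 0.0477). Il33, the alarm signal itself, stood at 0.92 (adjusted p = 0.151) in caerulein and at 1.39 (adjusted p = 0.0768) in i4F, each against WT. Csf2rb, Csf2rb2, Il10 and Calcrl are named after their values were seen.

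Across 92 sums per cell label and mouse, which share libraries and differ in depth, the genes most like each member were sought, and high likeness under the NK label is partly set by how the members were chosen. Pearson's r of the logged CPM was highest for Gata3 with Cd96 (0.85), Il13 with Klra8 (0.96), Il5 with Tcrg-C1 (0.94), Csf2 with Ccl1 (0.81) and Calca with Qrfp (0.72). Likeness over labels does not place genes in the same cells, as Klra8 had 0 UMIs in the 70 cells with at least 2 members and 127 in the other NK-labelled cells. Areg was most like Ltb4r1 (0.75), Ms4a6b (0.75) and Fcgr3 (0.73). Il13 and Il5 were alike (0.92), whereas Areg correlated with the other 5 genes at 0.20 to 0.35.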

How the data were processed

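The UMI counts per gene and cell were deposited as 1 table per condition, with cell labels and UMI totals (other columns). Per the labels and the study's methods, the authors aligned reads to mm10 and counted them with Cell Ranger, discarded cells (under 150 genes, or more than 5% mitochondrial UMIs), and clustered and named cells in Seurat for each condition separately. SoupX, a correction for free RNA, was applied by the authors, and whether the deposited counts precede it is not given in the sources used here. No doublet caller was run here.

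Counts were summed per mouse over all cells and over NK-labelled cells, and tested with edgeR 4.0.16 (TMM, low-count filter, quasi-likelihood test, Benjamini-Hochberg adjustment over all genes tested, threshold 0.05) in R 4.3.3, after tests on simulated data, with DESeq2 1.42.0 as an alternative. All 7 mice entered the fit over all cells, and the 5 WT and i4F mice that under the NK label. Each library is a separate mouse. CPM are UMIs scaled to 1000000 over the same cells. Shares have exact (Clopper-Pearson) 95% intervals, and a count of 0 allows 3 counts. Intervals cover counting error only. Thinning drew 500 UMIs from each cell.

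The 6 genes and all gene lists were chosen with earlier results of these data known. Named besides the members are up to 4 genes per pathway list with the highest mean level, for each member the 3 genes with the highest correlation, and the 10 genes with the highest CPM ratio (20 added) in cells with at least 2 members.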

Additional observations from a re-analysis of the deposited data

How the results depend on the processing

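Of 342 alternative values for the 6 genes over the 4 comparisons, 284 kept their direction and side of the threshold, 40 came under the threshold, 2 left it and 16 turned direction. The genes called in i4F against WT over all cells numbered 0 by edgeR, 4351 with DESeq2, 2405 without TMM, 2076 without the filter, 52 without the cells above the 95th percentile of UMIs, and 0 to 9543 when 1 mouse was left out. In caerulein against WT the 1666 genes became 5484, 2914 and 2830 with the first 3 of these, 8024 with the 2 groups alone, 0 with the series of the library name as a term, and 0 to 8909 without 1 mouse. In i4F against caerulein the 0 became 990 with DESeq2, 100 without the filter, 1 without the cells of highest UMIs, 1 with the 2 groups alone and 0 to 1652 without 1 mouse. Under the NK label the 54 became 100 with DESeq2, 82 without TMM, 247 without the filter and 8 to 101 without 1 mouse. Of the 6 genes, 1 under the NK label became 6 without the filter (1.4% of 17633 genes called), 5 with a replicate block (7.16% of 3574) and 3 in cells with at least 500 genes (1.89% of 2863), and in i4F against WT over all cells 0 became 2 without the filter (6.16% of 33681) and 4 with the block (44.4% of 18340). In caerulein against WT the 0 of the 6 genes became 2 with the 2 groups alone (46.1% of 17393) and 2 with the block (40.5% of 18340). Leaving out TMM moved the median change of all genes in i4F against WT from 0.04 to −0.34.

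The replicate numbers did not pair the mice (deviations of same-numbered mice correlated at −0.37 to 0.10). With a replicate block, 8138, 7426 and 514 genes were called over all cells, in the same order of comparisons, and 256 under the NK label, and with the numbers crossed, a pairing chosen after seeing the data, 8650 in caerulein against WT.

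With the series term, the change turned to 0.00387 for Gata3 in i4F against WT and −0.0182 for Calca in caerulein against WT, and in i4F against caerulein to 1.12 for Il13, 0.69 for Il5 and −1.18 for Csf2. Leaving out 1 mouse turned Gata3 in i4F against WT (−2.09 to 0.45), Calca (−0.32 to 1.02) and Il5 (−3.76 to 0.13) in caerulein against WT, Il13 (−1.48 to 0.56) and Il5 (−1.50 to 2.56) in i4F against caerulein, and Areg under the NK label (−2.16 to 0.36).

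The difference of i4F from WT in the share of cells with at least 2 of the genes turned to −0.158 percentage points with 3 genes required, −0.0924 with Gata3, Calca, Il13 and Il5 alone, −0.0517 after thinning, −0.116 for NK-labelled cells out of all cells and −12.1 out of NK-labelled cells. It was 0.00115 to 0.196 without 1 mouse. That of caerulein turned to 0.154 outside the NK label and was −0.186 to −0.0606 without 1 mouse, and that of i4F from caerulein was 0.124 to 0.320. The causes were not tested. Il13 and Il5 rested on 0 to 63 UMIs per mouse, and what difference could be detected at this depth was not measured.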
